A study of Homo sapiens with 9 samples.

Results

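The 10 genes described here belong to the circadian clock: the period genes *PER1*, *PER2* and *PER3*, the cryptochromes *CRY1* and *CRY2*, the REV-ERB receptors *NR1D1* and *NR1D2*, and the clock outputs *DBP*, *CIART* and *BHLHE40*. They were picked by name as parts of the clock, with earlier results of these data known, from the 60664 genes of the count files. All 10 passed the filter on low counts, among 18264 genes tested. The samples were polyadenylated RNA from MDA-MB-231, an established human breast cancer cell line with a mesenchymal-like form, kept for 6 days in medium of a set viscosity. SC cells, which carry a non-targeting scramble hairpin, were grown at 0.77 cP, the viscosity of the plain medium, or at 8 cP, reached with methylcellulose. shTRPV4 cells, in which a hairpin lowers the calcium channel TRPV4, were grown at 8 cP. Each group had 3 samples. All cells were stably transduced with a pLKO.1 puro lentiviral vector, kept under puromycin and grown in medium with heat-inactivated fetal bovine serum, which was renewed every other day. shTRPV4 cells at 0.77 cP were not analysed here. The hour at which cells were collected, and the time since the last medium change, are not given in the sources used here. The methods describe experiments in general as independent, but the labels do not say whether the 3 samples of a group came from separate cultures, and the p-values measure only the spread between these samples.

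The molecular clock is a feedback loop that runs in nearly every cell. The activators CLOCK and BMAL1 bind E-boxes in the *PER*, *CRY*, REV-ERB, *DBP* and *BHLHE40* genes, PER and CRY proteins then block the activators, and REV-ERB proteins repress *BMAL1*. In cultured cells a change of serum, a rise in glucocorticoid or a rise in cyclic AMP resets the loop, and *PER1* and *BHLHE40* also answer such signals directly as fast-response genes. Without resetting, the cells of a culture drift out of phase, and a bulk measurement averages over them. Fewer cells with a transcript and less of it in each cell cannot be told apart in such samples.

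Total counts ranged from 64571681 to 103518036 per sample, with a median of 91437674. Levels are given in CPM, the counts of a gene per 1000000 counts of its library after TMM (trimmed mean of M-values) scaling. *TRPV4* averaged 0.462 CPM in SC cells at 0.77 cP, 0.459 at 8 cP and 0.0777 in shTRPV4 cells at 8 cP, a log2 change of -2.51 under the hairpin (adjusted p = 0.00219, edgeR). Of the markers of the line, *VIM*, *CD44*, *KRT8* and *KRT18* were abundant in every group, with group means between 291 and 1410 CPM, and *EPCAM* was low at 18.1 to 19 CPM. *CDH1*, *ESR1* and *PGR* averaged at most 0.0916 CPM. Of the markers of other cell types, *PTPRC* averaged at most 0.147 CPM, *ALB* at most 0.0325, *COL1A1* between 4.43 and 6.4, and *PECAM1* between 2.18 and 5.04. Of the 8 markers tested, 5 were lower and 0 higher at 8 cP than at 0.77 cP in SC cells, with edgeR. Over all genes, 9.69% were lower and 9.57% higher. The 5 lower markers were *KRT8* (log2 -0.31), *KRT18* (-0.21) and *VIM* (-0.17), and of the markers of other cell types *PECAM1*, from 5.04 to 2.75 CPM (-0.86, adjusted p = 0.00159), and *COL1A1*, from 6.4 to 5.03 CPM (-0.35, adjusted p = 0.0117). With the hairpin at 8 cP 1 was lower, *VIM*, and 1 higher, *KRT18*, against 11% and 9.02% of all genes. The part of these markers in the clock genes' changes was not tested.

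The sequences below show where the activators' binding letters stand in front of these genes. They were looked up in RefSeq promoter windows (GRCh38.p14) that reach from 250 bases before to 50 bases after each start site. *PER3*, *CRY2* and *NR1D2* have a pair of start sites each, and the other 7 genes have a single one. The canonical E-box, CACGTG, which reads the same on both strands, was in the windows of *PER1*, *CIART*, *BHLHE40* and the second start site of *NR1D2*. It occurs in 7.26% of 35114 promoter windows. Each sequence is printed 5′ to 3′ on the strand of its gene, with the motif in capitals and its distance from the start site in bases.
PER1, -173 to -168, chr17:8152560-8152589, minus strand: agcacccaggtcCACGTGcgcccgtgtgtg
CIART, -129 to -124, chr1:150282413-150282442, plus strand: agtaactagagtCACGTGttaccggcgaca
CIART, -71 to -66, chr1:150282471-150282500, plus strand: agcagggggaggCACGTGccgggccgcacg
CIART, -57 to -52, chr1:150282485-150282514, plus strand: cgtgccgggccgCACGTGtctgggaggggg
BHLHE40, -245 to -240, chr3:4979187-4979216, plus strand: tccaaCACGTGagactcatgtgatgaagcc
NR1D2, -155 to -150, chr3:23945954-23945983, plus strand: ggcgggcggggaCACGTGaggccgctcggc
NR1D2, -105 to -100, chr3:23946004-23946033, plus strand: gggccgcagggaCACGTGggggcgggggcg

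The E′-box, CACGTT or AACGTG on the other strand, a variant used by several clock genes, was in the windows of *PER2*, *CRY1*, *NR1D1* and the second start site of *CRY2*, and in 5.34% of all windows.
PER2, -197 to -192, chr2:238288790-238288819, minus strand: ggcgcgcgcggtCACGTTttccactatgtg
CRY1, -89 to -84, chr12:107093621-107093650, minus strand: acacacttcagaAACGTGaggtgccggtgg
CRY2, -188 to -183, chr11:45847275-45847304, plus strand: acacatggtaggAACGTGagggggcgggcc
NR1D1, -168 to -163, chr17:40100740-40100769, minus strand: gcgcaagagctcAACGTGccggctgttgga
The D-box, the element bound by DBP and its relatives, was searched as TTATGTAA and TTACGTAA on both strands. The first form was in the windows of *PER3* and *NR1D2* and in 0.886% of all windows, and the second in that of *PER2* and in 0.125%. The D-boxes of *PER3* and *NR1D2* are printed because these genes had the smallest changes of the 10 with viscosity in SC cells. That of *PER2*, at -3 to 4, is not printed, and a link between D-boxes and these changes was not tested.
PER3, -177 to -170, chr1:7784103-7784132, plus strand: gagcccgcgcgTTATGTAAcgcgccccggg
NR1D2, -194 to -187, chr3:23945916-23945945, plus strand: gtgacgcggcaTTACATAAtgggcgctgag
The *DBP* window held none of these letters. The cyclic AMP response element TGACGTCA, present in 1.85% of all windows, the glucocorticoid element ACANNNTGT, in 5.37%, and the serum response core, in 0.0342%, were in none of the members' windows. The hypoxia core ACGTG, in 21.4% of windows, is contained in every E-box and E′-box. The ROR core AGGTCA, in 13.8%, was in the windows of *PER1* and *CRY2*, and the short cyclic AMP core TGACG, in 24.6%, in those of *PER2*, *CRY1*, *CRY2* and *NR1D2*. A match here is a match of letters and says nothing of binding in these cells.

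**Figure D1:**
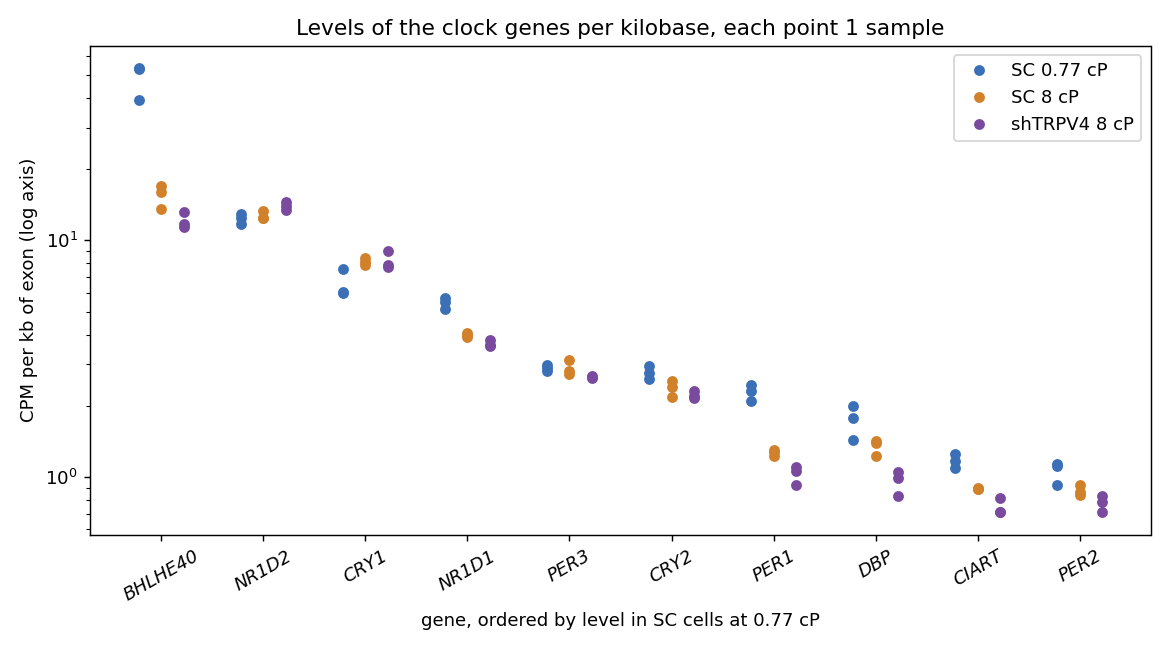
Level of each clock gene in CPM per kilobase of exon on a log axis, each point 1 of the 9 samples, with genes ordered by their level in SC cells at 0.77 cP. *BHLHE40* stood above the other 9 genes at 0.77 cP (48.6 CPM per kilobase on average) and averaged 12.1 in shTRPV4 cells, where *NR1D2* averaged 14.

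Per kilobase of exon, *BHLHE40* was the highest of the 10 genes in SC cells at 0.77 cP, at 48.6 ± 8.19 CPM per kilobase (SD, n = 3). *NR1D2* came next at 12.4, followed by *CRY1* at 6.55 and *NR1D1* at 5.45. *PER3* at 2.89 and *CRY2* at 2.77 had overlapping samples, *PER1* at 2.28 and *DBP* at 1.73 did not, and *CIART* at 1.17 overlapped *PER2* at 1.05. At 8 cP the SC cells kept *BHLHE40* first, at 15.6 CPM per kilobase, with *NR1D2* at 12.7. There *DBP* at 1.34 and *PER1* at 1.27 overlapped, and so did *CIART* at 0.894 and *PER2* at 0.875. In shTRPV4 cells *NR1D2* led at 14 CPM per kilobase, above *BHLHE40* at 12.1. At the low end *PER1* at 1.03 overlapped *DBP* at 0.957, and *PER2* at 0.775 overlapped *CIART* at 0.744. The place of *DBP* depends on the length used, because the union of its annotated exons is 6485 bases and its canonical transcript 2170. By canonical transcript it reached 5.18 CPM per kilobase in SC cells at 0.77 cP and overlapped *NR1D1* at 5.45. Other places move too. By canonical transcript *CIART* lay above *PER2* without overlap in every group, as at 1.05 and 0.86 in shTRPV4 cells. There *BHLHE40* at 13.5 overlapped *CRY1* at 13.1.

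SC cells at 8 cP were compared with SC cells at 0.77 cP, each after 6 days. Methylcellulose itself, and any difference in collection hour or time since medium change, cannot be told apart from viscosity in this comparison. Changes said to be with viscosity are changes in this comparison. Of the 10, *BHLHE40*, *PER1*, *NR1D1*, *CIART*, *DBP* and *CRY2* fell and *CRY1* rose, at a false discovery rate below 0.05 in edgeR's quasi-likelihood test, and *PER2*, *PER3* and *NR1D2* did not pass. Over all genes tested, 9.69% passed as lower and 9.57% as higher, 19.3% in all. These shares move with single samples, as the 1770 lower and 1748 higher genes became 738 and 671 without replicate 1 at 0.77 cP, 964 and 963 without replicate 2 at 0.77 cP, and 731 and 687 without SC replicate 3 at 8 cP. The median log2 change of the 10 genes was -0.32, against -0.00647 over all genes, whose median size of change was 0.152. In 6 of the 10 every sample at 8 cP lay below every sample at 0.77 cP and in 1 every sample lay above, where 19% and 19.4% of all genes did so, 38.4% together.

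**Figure D2:**
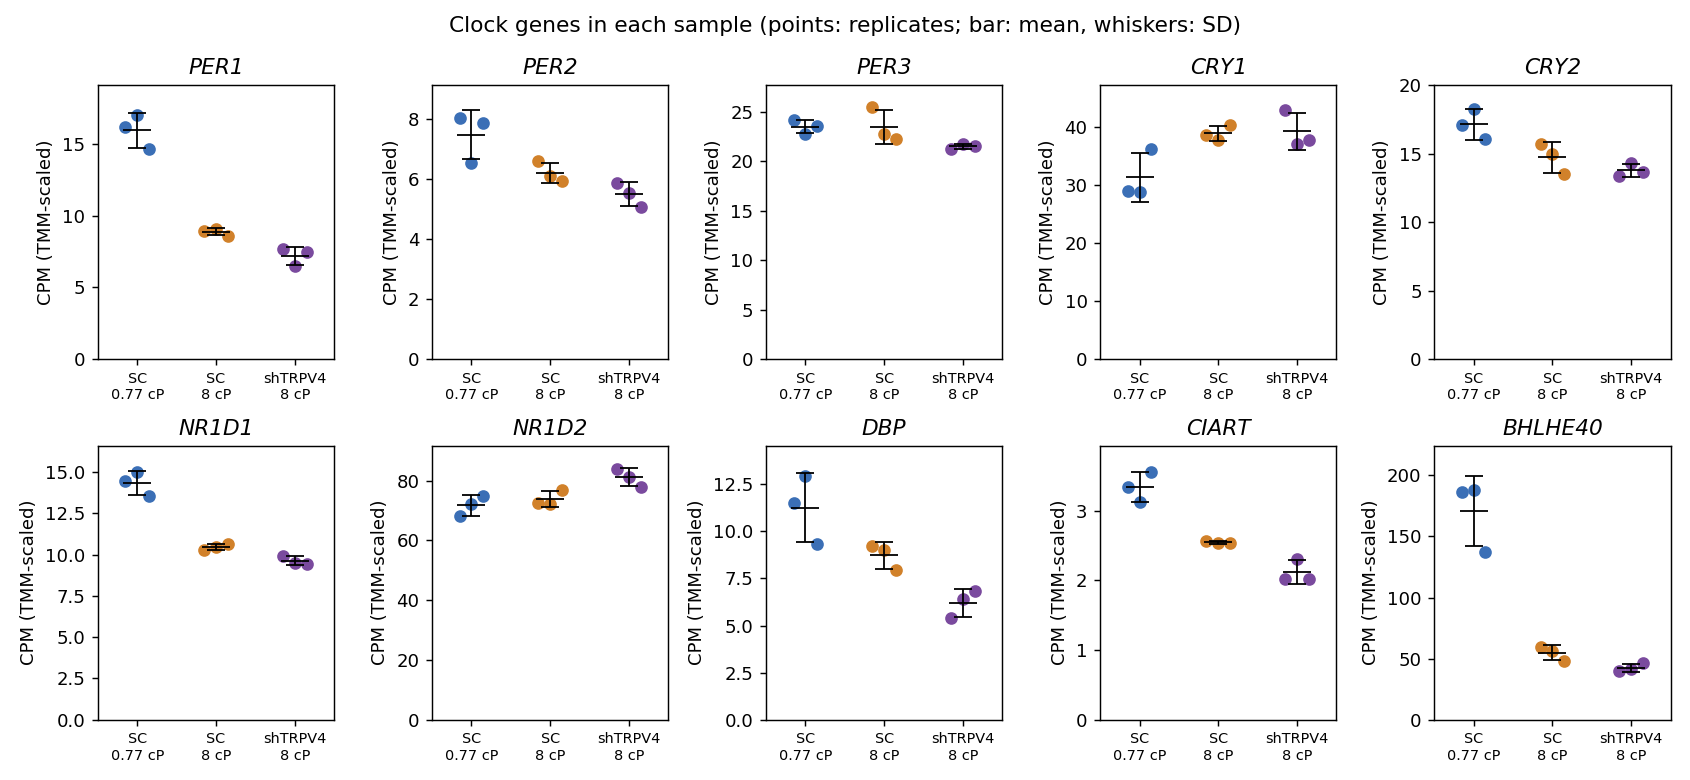
CPM of each of the 10 clock genes in the 9 samples, with 1 panel per gene and an axis from 0. Points are samples, the bar is the group mean and the whiskers are the SD (n = 3). *BHLHE40*, *PER1*, *NR1D1*, *CIART*, *DBP*, *CRY2* and *CRY1* separate SC cells at 0.77 cP from both groups at 8 cP. *PER3* and *NR1D2* differ least between the 2 SC groups.

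*BHLHE40* (ENSG00000134107, GRCh38 chr3:4979437-4985323, plus strand) encodes DEC1, a repressor that competes with CLOCK and BMAL1 for E-boxes. It showed the greatest change of the 10. Its levels were 187, 188 and 138 CPM in SC cells at 0.77 cP and 59.9, 56.6 and 47.9 CPM in SC cells at 8 cP. The lowest of the former was still far above the highest of the latter. The fall was 3.12-fold, a log2 change of -1.64 ± 0.11 (SE, adjusted p = 4.82e-08). It ranked 33rd by p among the 18264 genes tested. The antisense gene *BHLHE40-AS1* shares 451 exon bases with it, and since the strand setting of the counting is not stated, reads there may belong to either.

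*PER1* (ENSG00000179094, chr17:8140472-8156506, minus strand), the period gene that reacts fastest to resetting signals, had 16.2, 17.1 and 14.7 CPM in SC cells at 0.77 cP. At 8 cP it had 8.97, 9.10 and 8.60 CPM, a narrow range well below. The fall was 1.79-fold, with a log2 change of -0.84 ± 0.08 (SE, adjusted p = 4.65e-06). The other period genes moved less. *PER2* (ENSG00000132326, chr2:238244044-238290102, minus strand), which with *PER1* forms the core of the repressor complex, had 8.02, 6.53 and 7.88 CPM at 0.77 cP and 6.58, 6.11 and 5.93 CPM at 8 cP. The second sample at 0.77 cP lay within the range of the 8 cP samples. Its log2 change of -0.27 ± 0.094 narrowly missed the threshold (adjusted p = 0.0531, edgeR). Without that sample the adjusted p was 0.0305, without shTRPV4 replicate 1 it was 0.0392, and with DESeq2 it was 0.0423. *PER3* (ENSG00000049246, chr1:7784291-7845177, plus strand), a period gene that the loop does not need to run, had 24.1, 22.8 and 23.6 CPM at 0.77 cP and 25.4, 22.7 and 22.2 CPM at 8 cP. The groups overlapped, and the log2 change of -0.00378 had an SE of 0.06 (adjusted p = 0.973). Antisense genes, mainly *UTS2*, overlap 1350 exon bases of *PER3*.

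The cryptochromes moved in opposite directions. *CRY1* (ENSG00000008405, chr12:106991364-107093549, minus strand), the stronger repressor of the pair and a late-phase transcript in most tissues, had 29, 28.8 and 36.2 CPM at 0.77 cP and 38.7, 37.7 and 40.3 CPM at 8 cP. The groups did not overlap, though the third sample at 0.77 cP came near them. *CRY1* rose by a log2 value of 0.31 ± 0.08 (SE, adjusted p = 0.0148). That call was lost without replicate 1 or 2 at 0.77 cP (adjusted p = 0.0839 and 0.0668) or without SC replicate 3 at 8 cP (0.0599). *CRY2* (ENSG00000121671, chr11:45847118-45883248, plus strand) had 17.1, 18.3 and 16.1 CPM at 0.77 cP and 15.7, 15 and 13.5 CPM at 8 cP. Its log2 change was -0.22 ± 0.072 (adjusted p = 0.0458), with a gap between the groups smaller than their own ranges. Leaving out replicate 1 or 2 at 0.77 cP, SC replicate 2 or 3 at 8 cP, or shTRPV4 replicate 2 or 3 ended this call, with adjusted p-values of 0.131, 0.198, 0.101, 0.235, 0.0614 and 0.0533.

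The REV-ERB genes also differed from each other. *NR1D1* (ENSG00000126368, chr17:40092793-40100589, minus strand), which encodes REV-ERBα, the main repressor of *BMAL1*, had 14.5, 15 and 13.6 CPM at 0.77 cP and 10.3, 10.5 and 10.6 CPM at 8 cP. The samples within each viscosity lay close together and the groups were clearly apart. It fell 1.37-fold, with a log2 change of -0.45 ± 0.066 (SE, adjusted p = 0.00045). It shares 473 exon bases with *THRA* on the other strand, whose own log2 change was 0.01 (adjusted p = 0.904). *NR1D2* (ENSG00000174738, chr3:23945286-23980617, plus strand), which encodes REV-ERBβ, had 68, 72.3 and 74.9 CPM at 0.77 cP and 72.4, 72.3 and 76.8 CPM at 8 cP. These overlapped, with a log2 change of 0.04 ± 0.049 (adjusted p = 0.601).

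Of the output genes, *CIART* (ENSG00000159208, chr1:150282543-150287093, plus strand), which encodes CHRONO, a repressor of CLOCK and BMAL1, was the lowest of the 10 in CPM. It had 3.33, 3.12 and 3.56 CPM at 0.77 cP and 2.57, 2.54 and 2.53 CPM at 8 cP. The 8 cP samples were nearly equal and all below those at 0.77 cP, with a log2 change of -0.39 ± 0.11 (SE, adjusted p = 0.0198, edgeR). The call was lost without replicate 1 or 3 at 0.77 cP (adjusted p = 0.0708 and 0.0669) or without replicate 1, 2 or 3 of SC cells at 8 cP (0.0548, 0.0639 and 0.0801). *DBP* (ENSG00000105516, chr19:48630030-48637379, minus strand), a D-box activator and a direct readout of CLOCK and BMAL1, had 11.5, 13 and 9.30 CPM at 0.77 cP and 9.24, 8.99 and 7.93 CPM at 8 cP. The lowest sample at 0.77 cP and the highest at 8 cP all but touched. The log2 change was -0.36 ± 0.11 (adjusted p = 0.0371). Leaving out replicate 1 or 2 at 0.77 cP gave adjusted p-values of 0.134 and 0.187, leaving out SC replicate 1, 2 or 3 at 8 cP gave 0.057, 0.0707 and 0.162, and leaving out shTRPV4 replicate 2 gave 0.0504. *DBP* shares 661 exon bases with *SPHK2* on the other strand. The calls of *BHLHE40*, *PER1* and *NR1D1* held without any single one of the 9 samples. Of the 6 lower genes, 3 remained called without replicate 1 at 0.77 cP, without SC replicate 2 at 8 cP or without SC replicate 3 at 8 cP.

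**Figure D3:**
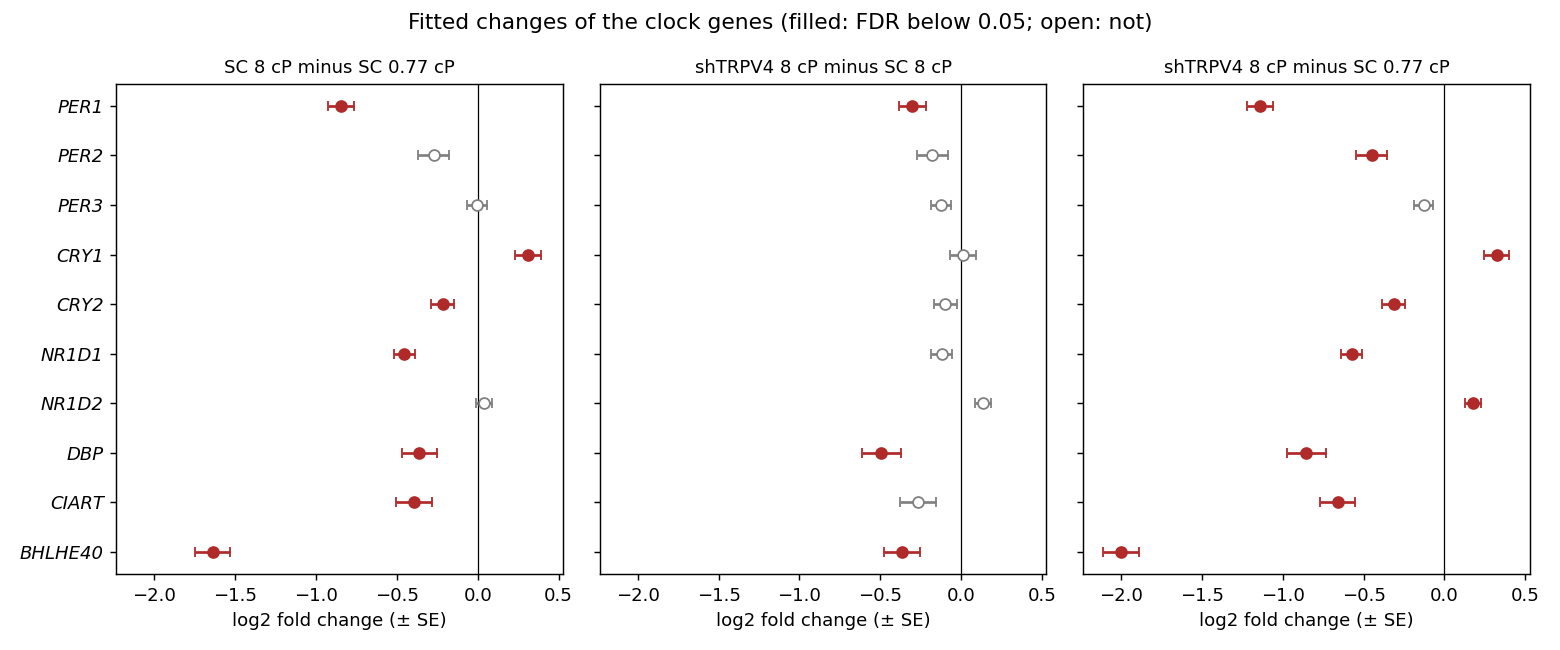
Fitted log2 fold change of each clock gene with its SE in the 3 comparisons. Filled points passed a false discovery rate of 0.05 and open points did not. *BHLHE40* and *PER1* changed most between SC cells at 8 cP and 0.77 cP (-1.64 and -0.84), and *DBP* had the greatest fall between shTRPV4 and SC cells at 8 cP (-0.49).

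The comparison of shTRPV4 with SC cells, both at 8 cP, set a single hairpin against the scramble control at the raised viscosity. Other effects of that hairpin, and other differences between the transduced cells, cannot be told apart from lower TRPV4 in it. *DBP*, *BHLHE40* and *PER1* were lower in shTRPV4 cells, and 7 did not pass. None of the 10 passed as higher with edgeR or DESeq2, and 1, *NR1D2*, was higher in edgeR before adjustment at the same threshold of 0.05. Over all genes, 11% passed as lower and 9.02% as higher, 20% in all. The 2002 lower and 1647 higher genes became 1286 and 893 without SC replicate 2, and the higher genes became 996 without SC replicate 1 and 1093 without shTRPV4 replicate 2. The median log2 change of the 10 genes was -0.15, against 0.000645 over all genes. In 7 of them all shTRPV4 samples lay below all SC samples and in 1, *NR1D2*, all lay above, against 18.8% and 17.6% of all genes, 36.3% together.

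*DBP* had 5.38, 6.40 and 6.84 CPM in shTRPV4 cells, all below the 7.93 to 9.24 CPM of SC cells at 8 cP. The log2 change was -0.49 ± 0.12 (SE, adjusted p = 0.00789), a fall of 1.41-fold, and its call held without any single sample, with adjusted p-values up to 0.0398. *BHLHE40* had 40, 41.2 and 46.5 CPM in shTRPV4 cells, against 47.9 to 59.9 CPM, a log2 change of -0.36 ± 0.11 (adjusted p = 0.0236). The highest shTRPV4 sample lay just under the lowest SC sample. That call was lost without SC replicate 1 or 2 (adjusted p = 0.112 and 0.0732), without shTRPV4 replicate 1 or 2 (0.0622 and 0.0791), and with DESeq2 (0.0577). *PER1* had 7.70, 6.48 and 7.45 CPM in shTRPV4 cells, against 8.60 to 9.10 CPM, with a log2 change of -0.30 ± 0.082 (adjusted p = 0.0178). It was lost without SC replicate 1 or 2 (0.0547 and 0.0626) or shTRPV4 replicate 2 (0.09).

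The remaining 7 genes had changes within -0.27 and 0.14 on the log2 scale. *CIART* had 2.02, 2.31 and 2.02 CPM in shTRPV4 cells (log2 change -0.27 ± 0.11, adjusted p = 0.107), and *PER2* had 5.87, 5.53 and 5.07 CPM (-0.18 ± 0.096, adjusted p = 0.219). *NR1D1* had 9.94, 9.51 and 9.42 CPM (-0.12 ± 0.066, adjusted p = 0.232), and *PER3* had 21.2, 21.7 and 21.6 CPM (-0.12 ± 0.06, adjusted p = 0.166). All 4 lay below the SC samples at 8 cP without passing the test. *CRY2*, at 13.4, 14.3 and 13.7 CPM (-0.10 ± 0.072, adjusted p = 0.391), and *CRY1*, at 43, 37 and 37.8 CPM (0.01 ± 0.08, adjusted p = 0.932), overlapped with SC cells. *NR1D2* had 83.9, 81.4 and 77.9 CPM, above all SC samples, with a log2 change of 0.14 ± 0.049 (adjusted p = 0.0665).

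The comparison of shTRPV4 cells at 8 cP with SC cells at 0.77 cP spans both the viscosity and the hairpin, which cannot be told apart in it, and it shares its samples with the other comparisons. Of the 10 genes 7 fell, 2 rose and *PER3* did not pass, where 22% of all genes passed as lower and 20.4% as higher, 42.4% in all. The samples of 8 genes lay wholly below and of 2 wholly above those at 0.77 cP, against 26.1% and 24.5% of all genes, 50.6% together. *BHLHE40* was 4.01-fold lower (log2 -2.00 ± 0.11, adjusted p = 2.46e-09), at 42.6 ± 3.46 CPM against 171 ± 28.8 (SD, n = 3). *PER1* was 2.21-fold lower (log2 -1.14 ± 0.081, adjusted p = 5.89e-08), and *DBP* was 1.81-fold lower (-0.85 ± 0.12, adjusted p = 3.41e-05). *CIART* changed by -0.66 ± 0.11 on the log2 scale (adjusted p = 0.000193), *NR1D1* by -0.57 ± 0.066 (6.92e-06), *PER2* by -0.45 ± 0.095 (0.00133) and *CRY2* by -0.31 ± 0.072 (0.00247). *CRY1* rose by 0.32 ± 0.08 (0.0042) and *NR1D2* by 0.18 ± 0.049 (0.00902). *PER3* changed by -0.13 ± 0.06 (adjusted p = 0.101), although its samples did not overlap. No call in this comparison was lost or gained by leaving out a sample.

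**Figure D4:**
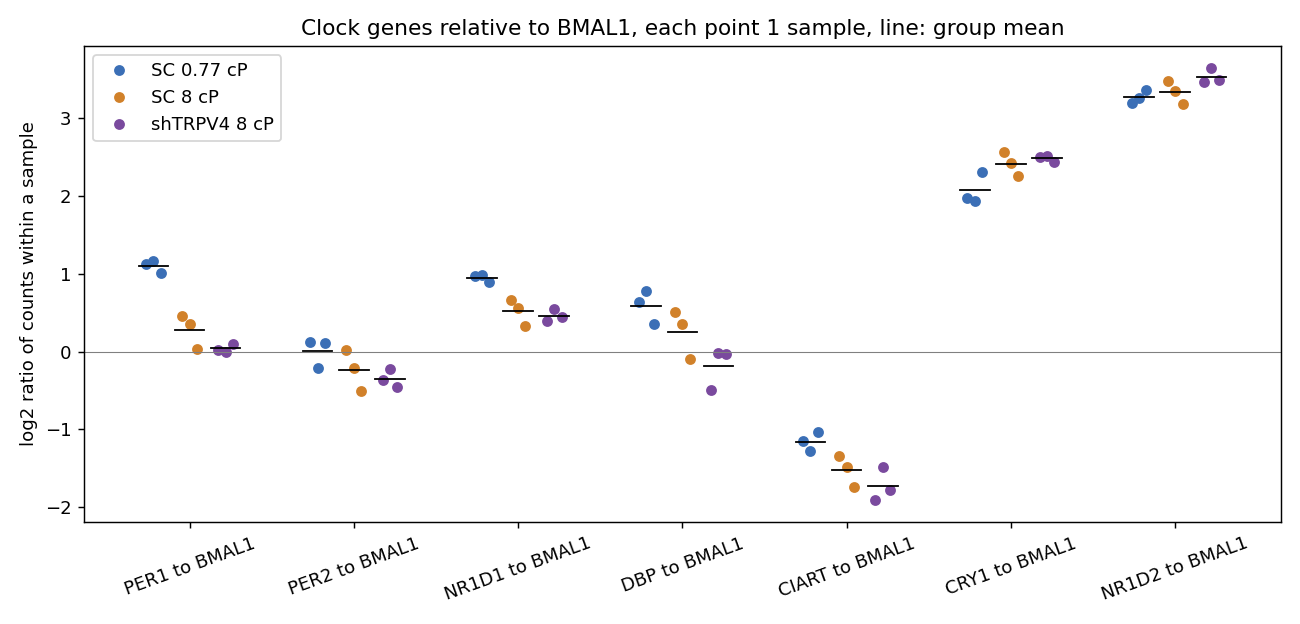
Log2 ratio of the counts of 7 clock genes to those of *BMAL1* within each sample, with a line at each group mean. The ratios of *PER1*, *NR1D1* and *CIART* were higher in every SC sample at 0.77 cP (means 1.10, 0.95 and -1.16) than in any sample at 8 cP. Those of *NR1D2* and *CRY1* were higher at 8 cP on average.

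In a synchronised culture, *PER* and REV-ERB transcripts peak while *BMAL1* is low, so their ratios to *BMAL1* within a sample are set out here for all of them. *BMAL1*, with 7.39, 7.56 and 7.30 CPM in SC cells at 0.77 cP, 6.50, 7.07 and 8.45 at 8 cP and 7.61, 6.48 and 6.96 in shTRPV4 cells, did not separate the groups. Its log2 changes were -0.02 with viscosity (adjusted p = 0.933) and -0.06 with the hairpin (adjusted p = 0.702). The log2 ratio of *NR1D1* to *BMAL1* counts averaged 0.95 ± 0.053 (SD, n = 3) in SC cells at 0.77 cP, 0.52 ± 0.17 at 8 cP and 0.46 ± 0.082 in shTRPV4 cells. That of *PER1* averaged 1.10 ± 0.083, 0.28 ± 0.23 and 0.04 ± 0.053. The ratio of *PER2* went from 0.01 ± 0.19 to -0.23 ± 0.27 in SC cells, a shift of the size of its spread. In shTRPV4 cells it was -0.35 ± 0.12. That of *DBP* went from 0.59 ± 0.22 to 0.26 ± 0.31 and -0.18 ± 0.27. The other members of these families did not follow. The ratio of *PER3* was 1.66 ± 0.064, 1.68 ± 0.29 and 1.62 ± 0.14, and that of *NR1D2* went up, from 3.27 ± 0.081 to 3.34 ± 0.15 and 3.53 ± 0.10. *CRY1* stood at 2.07, 2.41 and 2.48, *CRY2* at 1.21, 1.01 and 0.98, and *CIART* at -1.16, -1.52 and -1.73. Whether these cultures were synchronised is not known. With *BMAL1* nearly level between groups, the ratios mainly restate the changes of the other genes and do not give a phase. They are descriptions and carry no test.

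Of the other clock genes, the list of activators and ROR receptors, which drive *BMAL1*, held 7 genes. For this and each later list, the shares over all genes were 9.69% lower and 9.57% higher with viscosity. With the hairpin at 8 cP they were 11% lower and 9.02% higher. With viscosity in SC cells, *CLOCK* rose from 52.7 to 61.6 CPM (log2 0.22, adjusted p = 0.00547) and *BMAL2*, a relative of *BMAL1*, from 82.9 to 95.9 CPM (0.21, adjusted p = 0.0136). Of the rest, 4 genes, *RORA* among them at -0.41 (adjusted p = 0.0535), did not pass. The *BMAL2* call was lost without replicate 1 at 0.77 cP or SC replicate 3 at 8 cP (adjusted p up to 0.0781). Between shTRPV4 and SC cells at 8 cP, *RORA* fell from 2.34 to 0.875 CPM (-1.42, adjusted p = 1.68e-05), *RORB* from 0.531 to 0.30 (-0.82, adjusted p = 0.037) and *BMAL2* rose to 110 CPM (0.20, adjusted p = 0.014). The *RORB* call was lost without SC replicate 2 or 3 or any of the 3 shTRPV4 samples (adjusted p up to 0.191), and that of *BMAL2* without SC replicate 1 or 2 (up to 0.0852). *CLOCK* had a log2 change of -0.05 (adjusted p = 0.506).

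The list of other factors that act on D-boxes and E-boxes held *NFIL3*, *TEF*, *HLF* and *BHLHE41*. *NFIL3*, the D-box repressor that opposes *DBP*, fell from 35.5 to 29.5 CPM with viscosity (log2 -0.27, adjusted p = 0.00591) and to 23.5 CPM in shTRPV4 cells (-0.32, adjusted p = 0.0011). *TEF*, a D-box activator like *DBP*, fell from 18.3 to 15.1 and 12.3 CPM (-0.28, adjusted p = 0.0168, and -0.29, adjusted p = 0.0118). Its first call was lost without replicate 1 or 2 at 0.77 cP or SC replicate 2 or 3 at 8 cP (adjusted p up to 0.1), and its second without SC replicate 1 (0.069). *HLF* and *BHLHE41* did not pass in either comparison.

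The list of kinases, ligases and other proteins that set PER and CRY turnover held 12 genes tested. With viscosity 3 rose, 2 fell and 7 did not pass, where 9.57% of all genes rose and 9.69% fell. *CSNK1D* and *CSNK1E*, the casein kinases that mark PER proteins for breakdown, fell by 0.22 and 0.19 on the log2 scale (adjusted p = 0.00617 for each), the first only while SC replicate 3 at 8 cP was kept (0.0573 without it). *USP7*, a deubiquitinase that acts on cryptochromes, rose by 0.19 (adjusted p = 0.0133), a call lost without replicate 1 or 2 at 0.77 cP or SC replicate 3 at 8 cP (up to 0.0575). Between shTRPV4 and SC cells at 8 cP only the kinase gene *GSK3A* passed (0.16, adjusted p = 0.0282), and it was lost without any of the 3 SC samples at 8 cP or shTRPV4 replicate 2 or 3 (up to 0.0951). A further list held 12 genes tied to the clock as its outputs or in other ways, of which 2 rose, 2 fell and 8 did not pass with viscosity. *KLF10*, a zinc-finger repressor that growth factors also induce, fell from 197 to 86.2 CPM (-1.19, adjusted p = 4.61e-11). *NOCT*, which encodes the phosphatase nocturnin, fell from 30.5 to 16.3 CPM (-0.91, adjusted p = 6.61e-08). Between shTRPV4 and SC cells *KLF10*, *WEE1* and *PPARA* fell (-0.29, -0.27 and -0.20), *TIMELESS* rose (0.23, adjusted p = 0.0335) and 8 did not pass. The *PPARA* call was lost without SC replicate 1 or shTRPV4 replicate 3 (adjusted p up to 0.082), and that of *TIMELESS* without SC replicate 1 or 2 or shTRPV4 replicate 1 or 2 (up to 0.178).

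**Figure D5:**
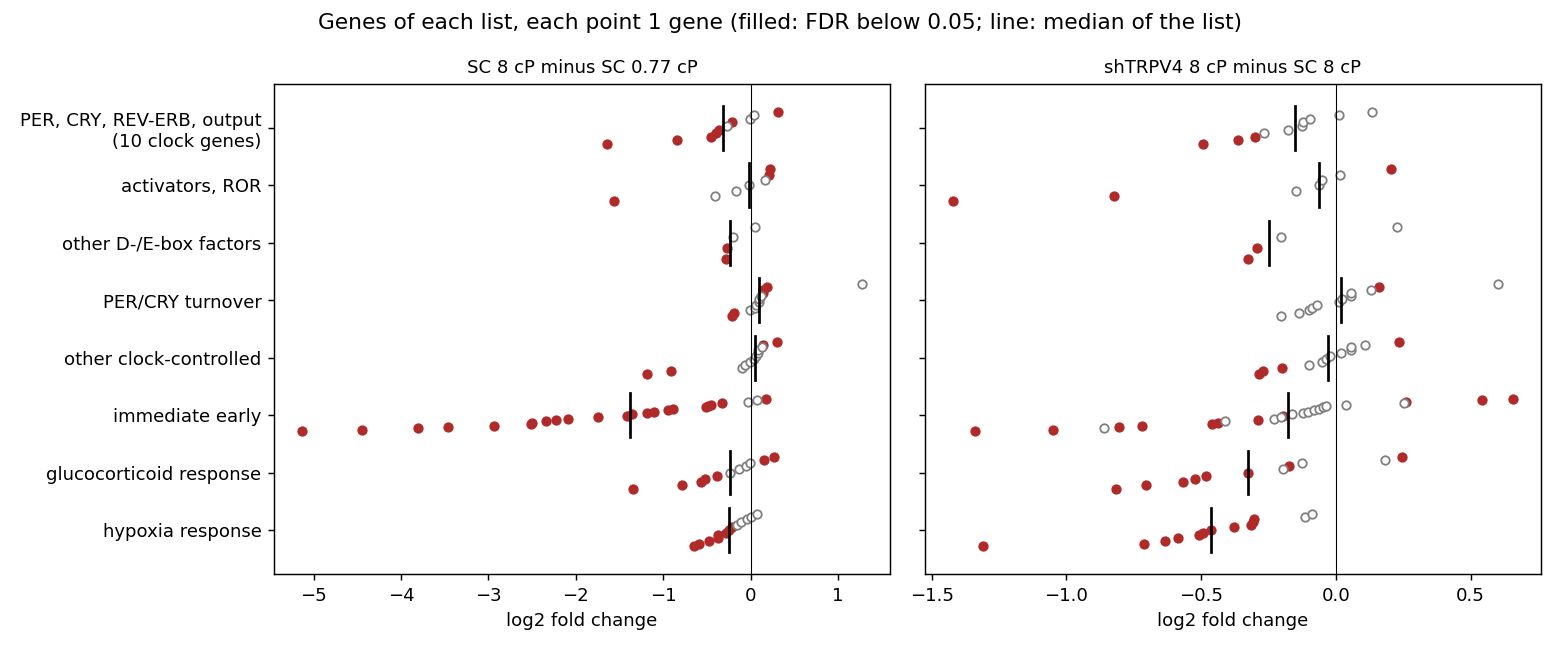
Log2 fold change of every tested gene of each list, with SC cells at 8 cP against 0.77 cP on the left and shTRPV4 against SC cells at 8 cP on the right. Filled points passed a false discovery rate of 0.05 and vertical lines are list medians. The list labelled other clock-controlled holds outputs of the clock and other genes tied to it. The immediate early genes lay lowest with viscosity (median -1.4) and the hypoxia response genes with the hairpin (median -0.46).

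Lists of genes that answer the known resetting signals, and hypoxia, were counted in the same way. Over all genes, 9.69% fell and 9.57% rose with viscosity, and 11% and 9.02% did so with the hairpin at 8 cP. The list of immediate early genes held 24, most of which serum and growth factors induce within an hour. In SC cells at 8 cP against 0.77 cP, 21 fell, 1 rose and 2 did not pass, with a median log2 change of -1.4. The riser was *FOSL1* (log2 0.18, adjusted p = 0.0411, edgeR). *NR4A1* fell from 35.1 to 0.997 CPM (log2 -5.13, adjusted p = 1.31e-13), *FOSB* from 21.9 to 1.00 CPM (-4.45, adjusted p = 6.81e-13), *ATF3* from 73.8 to 13.1 CPM (-2.50, adjusted p = 2.35e-12) and *ZFP36* from 55.2 to 16.4 CPM (-1.75, adjusted p = 2.63e-11). Between shTRPV4 and SC cells at 8 cP 8 fell, 3 rose and 13 did not pass (median -0.18), and *FOSL1* rose by 0.54 while *KLF2*, *NR4A2* and *JUN* fell by 0.44, 1.34 and 0.46. The part of this response, and of the time since medium change, in the changes of *PER1* and *BHLHE40* was not tested.

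Of 11 glucocorticoid response genes tested, 5 fell and 2 rose with viscosity (median -0.23), and 7 fell and 1 rose with the hairpin (median -0.33). In edgeR's test the risers with viscosity were *FKBP5* (log2 0.26, adjusted p = 0.0195) and *MT2A* (0.15, adjusted p = 0.0456). With the hairpin the riser was *SGK1* (0.24, adjusted p = 0.0149). *SGK1* fell with viscosity from 52.8 to 20.8 CPM (log2 -1.34, adjusted p = 1.21e-09) and *KLF9* from 28.5 to 19.8 CPM (-0.52, adjusted p = 0.0019). *TSC22D3*, which encodes the glucocorticoid-induced protein GILZ, fell by 0.57 with viscosity (adjusted p = 0.00277) and by 0.57 with the hairpin (adjusted p = 0.00195), while *KLF9* fell by 0.70 with the hairpin (adjusted p = 0.000104). Of 13 hypoxia response genes, 8 fell and none rose with viscosity (median -0.25), and 11 fell and none rose with the hairpin (median -0.46). Over all genes, 9.69% fell and 9.57% rose with viscosity, and 11% and 9.02% did so with the hairpin. *EPAS1*, *NDRG1*, *EGLN3* and *ADM* fell by 0.64, 0.48, 0.37 and 0.25 with viscosity. With the hairpin *CA9* fell by 1.31 (adjusted p = 4.06e-05), *BNIP3* by 0.63 (adjusted p = 6.9e-05), *ADM* by 0.46 (adjusted p = 1.57e-05) and *SLC2A1* by 0.31 (adjusted p = 0.000191). *BHLHE40* is itself known as a hypoxia-induced gene, and the part of these programmes in the changes of *DBP*, *BHLHE40* and *PER1* was not tested.

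The genes most like the leading members were sought in 9443 genes averaging 10 CPM or more, by the Euclidean distance of log2 deviations from the mean of SC cells at 0.77 cP over the 9 samples. Nearest to *BHLHE40*, which had the smallest adjusted p of the 10 in both comparisons with SC cells at 0.77 cP, were *RHOB* (distance 0.262), *INSIG1* (0.378) and *CSRNP1* (0.498). Nearest to *DBP*, which had the smallest adjusted p between shTRPV4 and SC cells at 8 cP, were *ASAP3* (0.189), *EGLN3* (0.208) and *COLGALT2* (0.223).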

How the data were processed

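Total RNA from 9 samples of MDA-MB-231 cells was sequenced by the authors as strand-specific poly(A) libraries. Per the labels and methods, reads were mapped with HISAT2 2.2.1 to GRCh38.p13 and exon reads were counted per Ensembl gene with HTSeq 0.13.5. The deposited files hold these raw counts, not normalized, 1 file per sample. The strand setting of the counting is not given in the sources used here.

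Groups were taken from the labels. Ensembl IDs were matched to symbols in GENCODE 44 (60463 of 60664). Genes were filtered with filterByExpr, scaled by TMM and tested with edgeR 4.0.16 (quasi-likelihood, R 4.3.3) over all 9 samples, with a coefficient per group and Benjamini-Hochberg adjustment over 18264 genes at 0.05. The script was tested on simulated data. The common biological coefficient of variation was 0.0633. All 9 pairs of samples within a group differed by more than sampling noise. CPM distances used a pseudocount of 0.1. The named genes were all members, *BMAL1*, *CLOCK*, *NFIL3*, *THRA* and *TRPV4*, up to 4 genes with the smallest adjusted p per list, and for the member with the smallest adjusted p the 3 nearest genes. The result of 1 gene of these lists is not reported here. The members and lists were chosen with earlier results of these data known. Alternatives were DESeq2 1.42.0, other scalings and filters, fits on 6 samples, a replicate block and leaving out each sample. With 3 samples against 3, an exact permutation test could not pass the threshold, so single ratios were not tested.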

Additional observations from a re-analysis of the deposited data

How the results depend on the processing

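Leaving out each sample in turn, the count of members lower at 8 cP than at 0.77 cP in SC cells ranged from 3 to 7 and of those higher from 0 to 1. With the hairpin at 8 cP, 1 to 3 were lower and 0 higher, and against SC cells at 0.77 cP the shTRPV4 cells had 7 lower and 2 higher each time. In the same fits the calls over all genes ranged from 731 to 2169 lower and 671 to 2359 higher with viscosity, from 1286 to 2093 and 893 to 1743 with the hairpin, and from 3218 to 3869 and 3100 to 3869 across both. Without scaling beyond the library total, 1 member, *NR1D2*, was higher with the hairpin (adjusted p = 0.0333). With DESeq2, 7 members were lower at 8 cP in SC cells and 2 were lower with the hairpin. *PER2* also passed at 8 cP under upper-quartile scaling (0.046), without a filter (0.0495) and with only the 6 samples compared (0.0468).

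Among genes that did not pass, some log2 changes crossed 0. With viscosity in SC cells, *PER3* was at 0.00582 and *TRPV4* at 0.000163 with DESeq2, and *THRA* at -9.98e-05 with upper-quartile scaling. Leaving out single samples gave ranges with viscosity of -0.0588 to 0.0423 for *PER3*, -0.12 to 0.0731 for *BMAL1*, -0.332 to 0.271 for *TRPV4* and -0.389 to 0.421 for *HLF*. With the hairpin at 8 cP the ranges were -0.0576 to 0.053 for *CRY1*, -0.145 to 0.049 for *BMAL1* and -0.166 to 0.667 for *HLF*, and for *HLF* in shTRPV4 cells against SC cells at 0.77 cP -0.124 to 0.65. The cause was not tested.

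The groups share replicate numbers, but same-numbered samples did not deviate together (correlations -0.0546 to 0.0904 over 9 pairs). With a replicate block the members' counts stayed at 6 lower and 1 higher with viscosity, 3 lower and 0 higher with the hairpin, and 7 lower and 2 higher across both, and *PER2* had an adjusted p of 0.0507. Of the other genes named, *RORA* passed with viscosity under the block (0.0402) and *RORB* did not pass with the hairpin (0.0504). All 10 genes had at least 181 counts in every sample.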
